A study of Mus musculus with 21 samples.

Results

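Ptch1, Hhip and Hhipl1 are 3 of the 23713 genes in a bulk RNA sequencing table of mouse tail keratinocytes. They were taken by gene name. The levels of all 3 were described in every library, and the change from tumour-free to tumour-bearing epidermis was compared within and between 3 mouse models of basal cell carcinoma (BCC).

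Patched 1, the product of Ptch1, is the receptor for Hedgehog ligands, and without ligand it holds Smoothened (Smo) inactive. Active Smo leads to Gli transcription factors that switch on their target genes. Ptch1 and Hhip are themselves among those targets, so the pathway makes its own inhibitors. Hhip (hedgehog-interacting protein) binds the ligands at the cell surface and keeps them from Patched. Hhipl1 encodes a protein related to Hhip by sequence, and its role in the pathway is less well known. BCC typically arises through loss of Patched 1 or activation of Smo. SmoM2 is an activated Smo that Patched cannot hold inactive, so it signals downstream of all these inhibitors. Protein kinase A (PKA), which cAMP activates, directs Gli proteins towards their repressor forms. Gnas encodes the G protein subunit that raises cAMP, and PKI is the name of a protein inhibitor of PKA.

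Tail skin keratinocytes came from 3 tumour-free control (Con) and 4 BCC libraries in each of the SmoM2, Gnas-eKO and PKI models, 21 libraries in all. The labels place SmoM2 at day 29, Gnas-eKO at day 42 and PKI at day 57 of tumour induction. They also give a separate batch letter per model (A, B and C), shared by its Con and BCC libraries, so model, day and batch cannot be told apart. The labels give neither the alleles, the driver of the transgene or knockout, nor the age and strain of the mice, and they do not say what the Con mice carried. Animal names in the table's header begin, for SmoM2 BCC libraries, with other letters than for SmoM2 Con libraries, so in that model tumour and origin of the mice cannot be told apart. Nothing states that the libraries of a group came from separate cultures, but each carries its own animal name in the headers.

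Library totals ranged from 16645858 to 22251132 estimated counts, and 3 counts correspond to at most 0.19 CPM (counts scaled to a common library size). Basal keratinocyte markers were abundant, with 7 genes summing to 31073 to 40167 CPM per Con library and 16429 to 33556 CPM per BCC library. Gnas-eKO BCC replicate 2 stood apart in Gli1, at 9.64 CPM, inside the range of its Con libraries (4.76 to 9.98 CPM), against 153 to 278 CPM in the other Gnas-eKO BCC libraries. Over all genes, replicate 3 of that group also stood apart, with a chi-square over df of 122 to 196 against the other 3 libraries, where replicate 2 had 86.1 to 196. Gnas itself was at 172 to 178 CPM in Gnas-eKO Con and at 50.6 to 114 CPM in Gnas-eKO BCC, so all 4 BCC libraries were below Con, although the change did not pass the test (edgeR quasi-likelihood test, adjusted p 0.0647). The PKI construct was not checked.

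The 3 genes lie on different chromosomes of the mouse genome build GRCm38 (mm10). Ptch1 (ENSMUSG00000021466.12) is on the minus strand of chromosome 13, from 63508328 to 63573598, with 14185 bases of merged exons and 10 annotated transcripts in GENCODE M21. Hhip (ENSMUSG00000064325.4) is on the minus strand of chromosome 8, from 79965851 to 80058006, with 9076 bases of merged exons. Hhipl1 (ENSMUSG00000021260.8) is on the plus strand of chromosome 12, from 108306270 to 108330869, with 5601 bases of merged exons. The 250 bases before each RefSeq start are printed because Ptch1 and Hhipl1 rose together in all models while Hhip did not, and because one model is named for Smo and the others for Gnas and PKI, which act on PKA. They are credited to RefSeq, build GRCm38.p6, and read 5′ to 3′ on the gene's strand. The windows are chr13:63565736-63565985 for Ptch1, chr8:80058009-80058258 for Hhip and chr12:108306020-108306269 for Hhipl1. The Hhip and Hhipl1 windows lie outside all genes counted here. Whether an annotated exon overlaps the Ptch1 window was not checked. The Ptch1 window lies inside the gene, because GENCODE gives Ptch1 5 protein-coding start sites and some lie further upstream than the RefSeq start. Capitals mark a cAMP response element.
Ptch1: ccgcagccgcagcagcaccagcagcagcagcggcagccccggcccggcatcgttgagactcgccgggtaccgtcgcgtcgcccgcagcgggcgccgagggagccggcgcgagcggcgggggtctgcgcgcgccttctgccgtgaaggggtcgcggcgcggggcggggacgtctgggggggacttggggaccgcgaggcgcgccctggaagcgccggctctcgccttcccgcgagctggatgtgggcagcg
Hhip: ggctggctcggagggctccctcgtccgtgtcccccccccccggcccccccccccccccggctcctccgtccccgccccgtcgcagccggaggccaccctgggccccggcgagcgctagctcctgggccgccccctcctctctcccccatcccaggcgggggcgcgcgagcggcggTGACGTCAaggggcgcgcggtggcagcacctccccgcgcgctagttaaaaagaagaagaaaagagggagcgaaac
Hhipl1: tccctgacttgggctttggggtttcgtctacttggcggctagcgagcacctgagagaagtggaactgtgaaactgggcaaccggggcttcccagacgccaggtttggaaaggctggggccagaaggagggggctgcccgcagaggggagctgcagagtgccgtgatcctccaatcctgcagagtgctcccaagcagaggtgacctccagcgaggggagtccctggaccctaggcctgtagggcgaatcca

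Both strands of these windows were searched for the Gli motif GACCACCCA, its inner part ACCACCC, the palindromic cAMP response element TGACGTCA and its part TGACG. Neither Gli string was in any of the 3 windows. Of 32851 RefSeq promoter windows of that length, 0.225% held GACCACCCA and 3.92% held ACCACCC. The Hhip window held TGACGTCA with its first base at position −75 from the start, and 1.55% of all windows held it. Its part TGACG, in 17.8% of all windows, matched on both strands of that same element and nowhere else in the 3 windows. The windows of Ptch1 and Hhip were rich in G and C (78.4% and 76%), that of Hhipl1 less so (62.4%), against a median of 52.4% over all windows. TGACGTCA contains CG, which the Hhip window held 28 times against a median of 6 over all windows. The share of windows as rich in CG that hold TGACGTCA was not counted. A match of letters is a description and does not show binding.

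Ptch1, the Hedgehog receptor, rose in every model. In SmoM2 it was at 33.4, 30.8 and 42.9 CPM in the Con libraries and at 989, 1059, 801 and 827 CPM in BCC replicates 1 to 4. In Gnas-eKO the Con libraries held 30, 31.4 and 39.1 CPM and BCC replicates 1 to 4 held 926, 270, 312 and 826 CPM. In PKI the values were 32.9, 30.9 and 40.2 CPM in Con and 255, 209, 291 and 339 CPM in BCC replicates 1 to 4. The lowest BCC library of each model was thus above its highest Con library, and the 9 Con libraries all lay between 30 and 42.9 CPM whatever the model. Mean CPM in BCC exceeded that in Con 25.8 times in SmoM2, against 17.4 times in Gnas-eKO and 7.9 times in PKI. In log2 terms the SmoM2 rise was 4.70 (SE 0.17), the Gnas-eKO rise 4.14 (SE 0.51) and the PKI rise 2.99 (SE 0.18). The edgeR adjusted p values were 3.5e-07, 0.0172 and 4.8e-05. Over all genes tested, 16.2% (SmoM2), 1.46% (Gnas-eKO) and 18.7% (PKI) were called higher, and BCC lay wholly above Con for 19.7%, 9.73% and 22.4% of them. In size, the rise of Ptch1 ranked 94th of 16370 genes in SmoM2, 72nd of 16409 in Gnas-eKO and 352nd of 16397 in PKI.

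**Figure D1:**
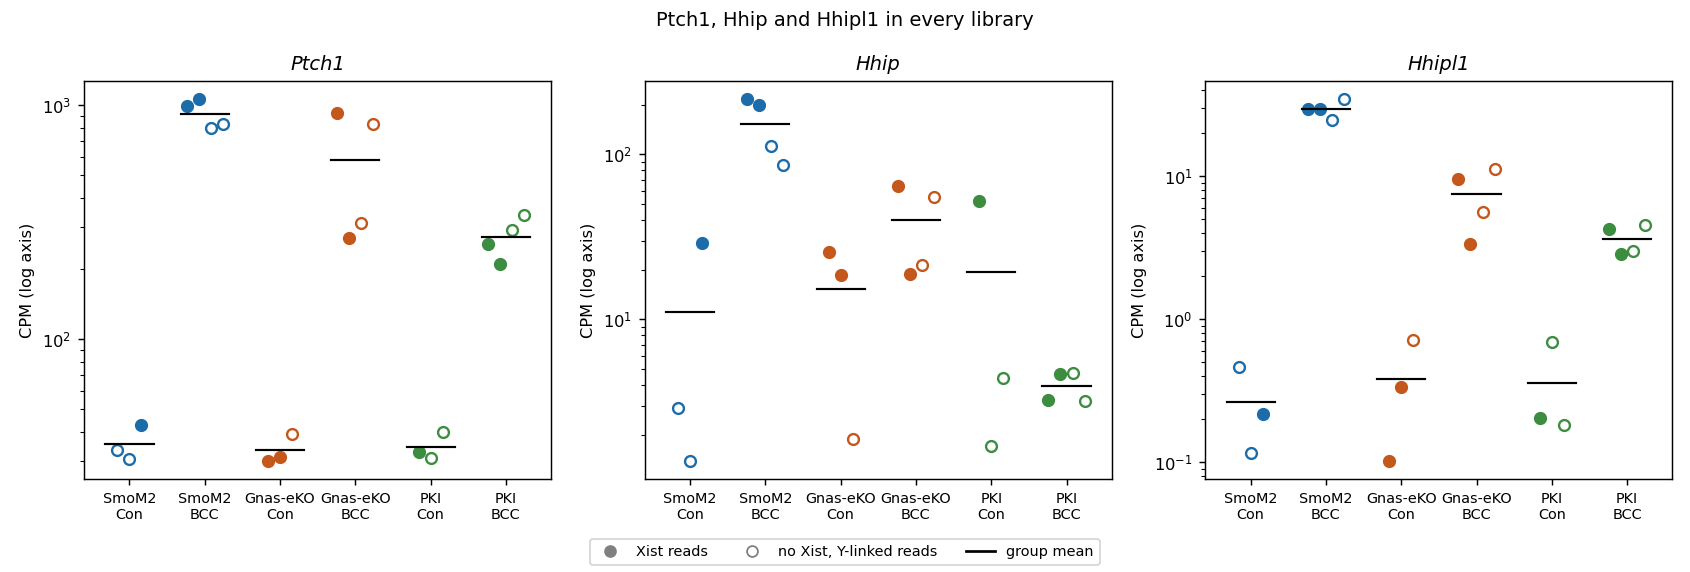
CPM (log axis) of Ptch1, Hhip and Hhipl1 in each library of the 6 groups, 3 Con and 4 BCC libraries per model. Filled points are libraries with Xist reads, open points those with Y-linked reads, and bars are group means. Ptch1 and Hhipl1 separate BCC from Con in every model, while Hhip Con libraries split by Xist and the 4 PKI BCC libraries sit between 3.18 and 4.73 CPM.

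Hhipl1, the Hhip relative, rose from near the detection floor in every model. Its Con libraries held 10, 2 and 4 counts for SmoM2, 2, 6 and 14 for Gnas-eKO, and 4, 11 and 3 for PKI. These are 0.101 to 0.716 CPM over the 9 Con libraries. In SmoM2 BCC replicates 1 to 4 it was at 29.6, 29.5, 24.9 and 34.7 CPM. In Gnas-eKO BCC the values were 9.62, 3.37, 5.66 and 11.3 CPM, and in PKI BCC 4.3, 2.84, 2.99 and 4.55 CPM. No BCC library of any model fell into the range of its Con libraries, and the SmoM2 BCC libraries stood above all other BCC libraries. Log2 fold changes were 6.73 (SE 0.28) in SmoM2, 4.28 (SE 0.66) in Gnas-eKO and 3.38 (SE 0.47) in PKI. The edgeR adjusted p values were 4.34e-07, 0.0273 and 0.000907. With so few Con counts these values depend on what is added before taking logs. On the authors' normalized values plus 1 they were 4.61, 2.53 and 1.78, past the threshold in all 3 models by limma. By rank of size the rise was 22nd in SmoM2, 71st in Gnas-eKO and 263rd in PKI.

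In Gnas-eKO the calls of Ptch1 and Hhipl1 depended on which libraries entered the fit. When any 1 Con library was left out the edgeR adjusted p of Ptch1 was 0.105 to 0.146 and that of Hhipl1 0.105 to 0.163, and only 0, 0 and 4 genes were called at all. Hhipl1 also missed the threshold without BCC replicate 1 or 4 (edgeR adjusted p 0.0718 and 0.0721) and when replicate numbers entered as a block (log2 fold change 4.00, adjusted p 0.0549). Without BCC replicate 2, the library low in Gli1, the log2 fold changes were 4.39 for Ptch1 and 4.53 for Hhipl1 (edgeR adjusted p 0.00106 and 0.00304), and 1910 genes were called in place of 267. Without BCC replicate 3 both calls held (edgeR adjusted p 0.0253 and 0.0405), with 291 genes called.

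Hhip, the ligand-binding decoy, was called in no model by the edgeR fit of that model's 7 libraries without covariates, and in SmoM2 alone its unadjusted p was under 0.05 (0.0164). DESeq2 called it in SmoM2 and not in Gnas-eKO or PKI. In SmoM2 its Con libraries held 2.9, 1.38 and 29 CPM, and BCC replicates 1 to 4 held 216, 199, 111 and 85.7 CPM. In Gnas-eKO the Con libraries held 25.5, 18.5 and 1.89 CPM and the BCC libraries 63.8, 18.7, 21.4 and 55.3 CPM. In PKI the values were 52, 1.71 and 4.39 CPM in Con and 3.22, 4.64, 4.73 and 3.18 CPM in BCC. BCC lay wholly above Con in SmoM2, as did 19.7% of all genes tested, and overlapped Con in both other models. The Con libraries varied far more for Hhip than for Ptch1, with a coefficient of variation of 79.3% to 146% within a model against 14% to 17.8%. Log2 fold changes were 3.81 (SE 1.11) in SmoM2, 1.40 (SE 0.77) in Gnas-eKO and −2.28 (SE 1.11) in PKI. Their edgeR adjusted p values were 0.0537, 0.358 and 0.166. In SmoM2 Hhip passed with DESeq2 (log2 fold change 3.79, adjusted p 0.00174), in a joint edgeR fit of all 21 libraries (3.79, adjusted p 0.0286) and with limma on the authors' normalized values (4.47, adjusted p 0.0211). It also passed without Con replicate 3 (6.13, edgeR adjusted p 0.00523) and with a covariate for Xist (4.05, edgeR adjusted p 0.0135), which was chosen with the Hhip values known. It did not pass with the replicate block (4.84, edgeR adjusted p 0.167), without a filter on low counts (3.82, adjusted p 0.0815), with DESeq2's size factors (3.80, adjusted p 0.0542) or without any 1 of the other 6 libraries. In PKI the value was −0.90 with limma on the authors' values (adjusted p 0.526) and −0.91 with the replicate block (edgeR adjusted p 0.736), and it turned to 0.37 without Con replicate 1 (edgeR adjusted p 0.504).

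**Figure D2:**
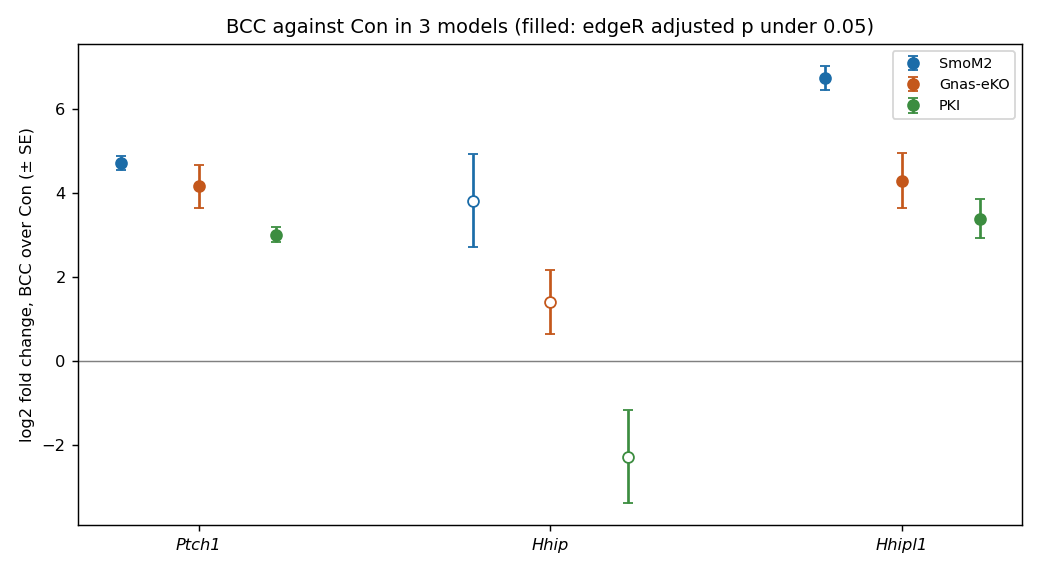
Log2 fold change of BCC over Con with its standard error for Ptch1, Hhip and Hhipl1 in the 3 models (edgeR). Filled points have an adjusted p under 0.05. Hhip has the widest errors in SmoM2 and PKI and crosses from 3.81 in SmoM2 to −2.28 in PKI.

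The Con libraries high in Hhip were those with reads of Xist, the RNA made from the inactive X chromosome of female cells. In the 4 Con libraries with Xist above the summed Y-linked genes Hhip was at 18.5, 25.5, 29 and 52 CPM. In the 5 Con libraries with Y-linked reads it was at 1.38, 1.71, 1.89, 2.9 and 4.39 CPM, so the ranges did not overlap. Ptch1 ranged from 30 to 42.9 CPM in the former and from 30.8 to 40.2 CPM in the latter, and Hhipl1 from 0.101 to 0.336 and from 0.115 to 0.716 CPM, so both overlapped. How many of all genes split the Con libraries as Hhip does was not counted. Among BCC libraries the order remained in SmoM2, where Hhip was at 199 and 216 CPM with Xist and at 85.7 and 111 CPM without. Ptch1 split the same way there, at 989 and 1059 CPM with Xist and at 801 and 827 CPM without, and the opposite way in PKI BCC, at 209 and 255 CPM with Xist and at 291 and 339 CPM without. Splits in BCC were thus seen for Ptch1 as well as Hhip, and with 2 libraries of each kind per group they carry little weight. How many of all genes split so in BCC was not counted. In Gnas-eKO BCC Hhip was at 18.7 and 63.8 CPM with Xist and 21.4 and 55.3 CPM without, and in PKI BCC 3.22 and 4.64 against 3.18 and 4.73 CPM, so these overlapped. Every group held libraries of both kinds, 1 of 3 or 2 of 3 with Xist in Con and 2 of 4 in each BCC group. All 4 PKI BCC libraries were therefore below each Con library with Xist, in any model, and inside or close to the range of the Con libraries without. With a covariate for Xist, Hhip rose past the threshold in SmoM2 (log2 fold change 4.05, SE 0.68, edgeR adjusted p 0.0135) and stayed short of it in Gnas-eKO and PKI. That covariate was chosen with the Hhip values known, so the pass is no independent support. It also takes the shift with Xist as equal in Con and BCC, while Hhip overlapped in Gnas-eKO and PKI BCC. The link between Hhip and Xist was already known from earlier results on these libraries, so no test of it is given, and what else differs between these mice was not tested.

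**Figure D3:**
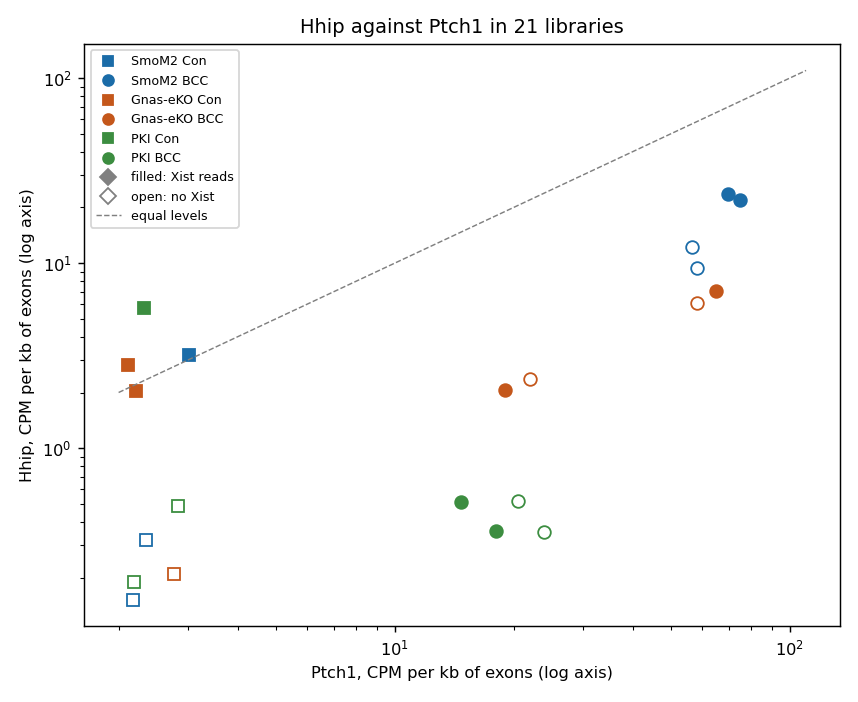
Hhip against Ptch1 in the 21 libraries, both in CPM per kb of merged exons on log axes, with squares for Con, circles for BCC and filled points for libraries with Xist reads (dashed line, equal levels). Con libraries differ along the Hhip axis at nearly constant Ptch1, and PKI BCC libraries have raised Ptch1 with Hhip at most 0.521 CPM per kb.

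Per kb of exons, Ptch1 was the most abundant of the 3 in all 12 BCC libraries and in 6 of the 9 Con libraries. The 3 exceptions, where Hhip was above Ptch1, were SmoM2 Con replicate 3, Gnas-eKO Con replicate 1 and PKI Con replicate 1, each with Xist reads. In SmoM2 BCC the mean levels per kb were 64.8 ± 8.8 CPM for Ptch1, 16.8 ± 7.04 for Hhip and 5.3 ± 0.714 for Hhipl1 (SD, n = 4). In Gnas-eKO BCC they were 41.1 ± 24, 4.39 ± 2.55 and 1.33 ± 0.644 CPM per kb, in the same order of genes (SD, n = 4). In PKI BCC they were 19.3 ± 3.88 for Ptch1, 0.435 ± 0.0947 for Hhip and 0.655 ± 0.157 for Hhipl1 (SD, n = 4). Hhipl1 was above Hhip in 3 of the 4 PKI BCC libraries and in no other library.

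The ratio of Ptch1 to Hhip per kb spanned 2.93 to 6.18 among SmoM2 BCC libraries, 9.25 to 9.55 among those of Gnas-eKO and 28.8 to 68.2 among those of PKI, so the 3 tumour groups did not overlap. In Con it ran from 0.404 to 14.3 over the 9 libraries. The ratio in Gnas-eKO BCC hardly moved although both genes did, since the highest library exceeded the lowest by 3.43 times for Ptch1, 3.42 times for Hhip and 3.34 times for Hhipl1. Replicates 1 and 4 were high and replicates 2 and 3 low for all 3 genes. Gli1, the Gli factor that is itself a pathway target, took another order, at 234, 9.64, 278 and 153 CPM in replicates 1 to 4. In replicate 2, Gli1 was thus at its Con level while Ptch1 and Hhipl1 were above all their Con libraries. Gnas was at 114, 89.4, 50.6 and 65.5 CPM in the same replicates, an order that none of Ptch1, Hhip, Hhipl1 and Gli1 followed.

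The BCC effect was next compared between models. A batch difference that is equal for Con and BCC cancels in this contrast. Between PKI and SmoM2 it differed for all 3 genes, as it did for 24.9% of the 17261 genes tested, and the difference was toward a lower effect in PKI, as for 12.3%. For Ptch1 the PKI effect was lower than the SmoM2 effect by a log2 difference of −1.71 (SE 0.24, edgeR adjusted p 0.000268). For Hhipl1 the difference was −3.35 (SE 0.65, edgeR adjusted p 0.00222). For Hhip it was −6.10 (SE 1.66, edgeR adjusted p 0.0222), but this call was lost without PKI Con replicate 1 (−3.42, adjusted p 0.133), without SmoM2 Con replicate 1 (−5.64, adjusted p 0.0509) and with the replicate block (−5.94, adjusted p 0.174). With the Xist covariate, chosen with the Hhip values known, the call held (−5.93, edgeR adjusted p 0.00455). Between Gnas-eKO and SmoM2, where 0.175% of 17151 genes differed, none of the 3 passed. Their differences were −0.55 (SE 0.51) for Ptch1, −2.40 (SE 1.37) for Hhip and −2.45 (SE 0.83) for Hhipl1, with edgeR adjusted p of 0.793, 0.652 and 0.356. Between PKI and Gnas-eKO, where 9.06% of 17254 genes differed, they were −1.15 (SE 0.52), −3.68 (SE 1.45) and −0.90 (SE 0.86), with edgeR adjusted p of 0.184, 0.139 and 0.551. A difference that did not pass does not show equal effects.

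A list of 34 Hedgehog pathway genes, which includes the 3, places them among their partners. In SmoM2 18 of the 28 tested genes were called higher and 0 lower, with a median log2 fold change of 1.15 against 0.00 over all genes. In Gnas-eKO 5 of 28 were called higher and 0 lower (median 0.77 against 0.02), and in PKI 13 of 29 higher and 4 lower (median 0.26 against 0.00). The share called over all genes was 16.2%, 1.46% and 18.7% higher and 13.5%, 0.165% and 15.8% lower. The Gnas-eKO count became 13 when the 21 libraries were fitted jointly, 12 with DESeq2, 11 and 10 without BCC replicate 2 or 3, 2 without BCC replicate 1, 3 with the replicate block, and 0, 0 and 1 without Con replicate 1, 2 or 3.

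Ligand genes were scarce. Shh, Ihh and Dhh fell under the filter on low counts in SmoM2 and Gnas-eKO, and only Shh was tested in PKI, where its log2 fold change was 1.50 (edgeR adjusted p 0.0594). Co-receptors that bind ligand together with Patched went different ways. Gas1 and Boc rose in SmoM2, by 1.25 and 0.93 on the log2 scale (edgeR adjusted p 3.91e-06 and 0.000969). In PKI Cdon fell by 1.22 and Boc fell by 0.76 on that scale (edgeR adjusted p 0.000178 and 0.00378). Hhipl2, the remaining Hhip relative on the list, was too scarce to test, with at most 5 counts in a library.

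Among transduction genes, Gli1 rose by 4.88 in SmoM2 and 2.93 in PKI on the log2 scale (edgeR adjusted p 0.000462 and 7.1e-05) and had 4.67 in Gnas-eKO (adjusted p 0.0715, short of the threshold). Gli2, the main activator among the Gli factors, had rises of 3.54 (SmoM2), 2.60 (Gnas-eKO) and 1.31 (PKI) (edgeR adjusted p 3.86e-08, 0.00699 and 0.00521). Kif7, a kinesin of the primary cilium, rose by 2.34, 1.84 and 1.16 (edgeR adjusted p 4.96e-06, 0.0326 and 0.0011). Of the known targets, Mycn, a proliferation factor of the Myc family, rose by 4.54, 4.14 and 2.48 (edgeR adjusted p 0.000143, 0.0206 and 0.000489). Foxe1, a forkhead factor, ran in another order, with 1.71, 3.74 and 6.04 (edgeR adjusted p 0.0145, 0.0803 and 0.000141), the Gnas-eKO value being short of the threshold. Ccnd2, a cell cycle cyclin, fell by 0.63 on the log2 scale in PKI (edgeR adjusted p 0.0113). Among ligand handling genes in PKI, Scube2, which helps release ligand, fell by 1.76 and its relative Scube3 rose by 1.58 on that scale (edgeR adjusted p 0.0239 and 0.00603).

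Patched belongs to the proteins with a sterol-sensing domain. A list of others of this class, without Ptch1, had 8 genes in the table and 5 tested in each model. In SmoM2 1 was called higher and 1 lower, in PKI 1 was called higher, and in Gnas-eKO 0 were called, beside the shares of all genes given for the pathway list. They were Npc1, a lysosomal cholesterol transporter, and Disp1, which releases Hedgehog ligands. Npc1 fell by 0.31 in SmoM2 and rose by 0.37 in PKI on the log2 scale, and Disp1 rose by 1.35 in SmoM2 (edgeR adjusted p 0.0349, 0.0254 and 0.0168).

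The genes next to Ptch1 were examined because reads could be shared and because the region might move together. Gm30655 lies on the opposite strand, 1453 bases beyond the upper end of Ptch1, where the furthest upstream annotated Ptch1 transcript starts. It had 1, 0 and 0 counts in SmoM2 Con and 62, 57, 33 and 43 in SmoM2 BCC. In Gnas-eKO it had 0, 2 and 0 counts in Con and 18, 12, 34 and 53 in BCC, and in PKI 2, 0 and 0 in Con and 4, 4, 7 and 12 in BCC. It was above Con in every BCC library, and was called higher in SmoM2 and Gnas-eKO (edgeR adjusted p 6.55e-05 and 0.0475) but was under the filter in PKI. A930032L01Rik, which overlaps Ptch1 on the same strand, had at most 1 count in any Con library and 0 to 16 counts in BCC libraries, few beside those of Ptch1. Fancc, a DNA repair gene 11050 bases on the other side, rose in SmoM2 (log2 change 1.51, edgeR adjusted p 1.71e-05), from 8.45 to 11.1 CPM in Con to 24.9 to 28.5 CPM in BCC. Its values of 0.67 for Gnas-eKO and 0.27 for PKI were short of the threshold (edgeR adjusted p 0.144 and 0.256), although in Gnas-eKO the lowest BCC library (13 CPM) was above the highest Con library (12.6 CPM). The nearest genes to Hhip, Anapc10 and Gm5909, and to Hhipl1, Ccdc85c and Cyp46a1, were called in no model, and none of these overlaps a member. Whether Gm30655 reads include transcripts that start at Ptch1 was not tested, and whether counting used the strand is not stated.

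**Figure D4:**
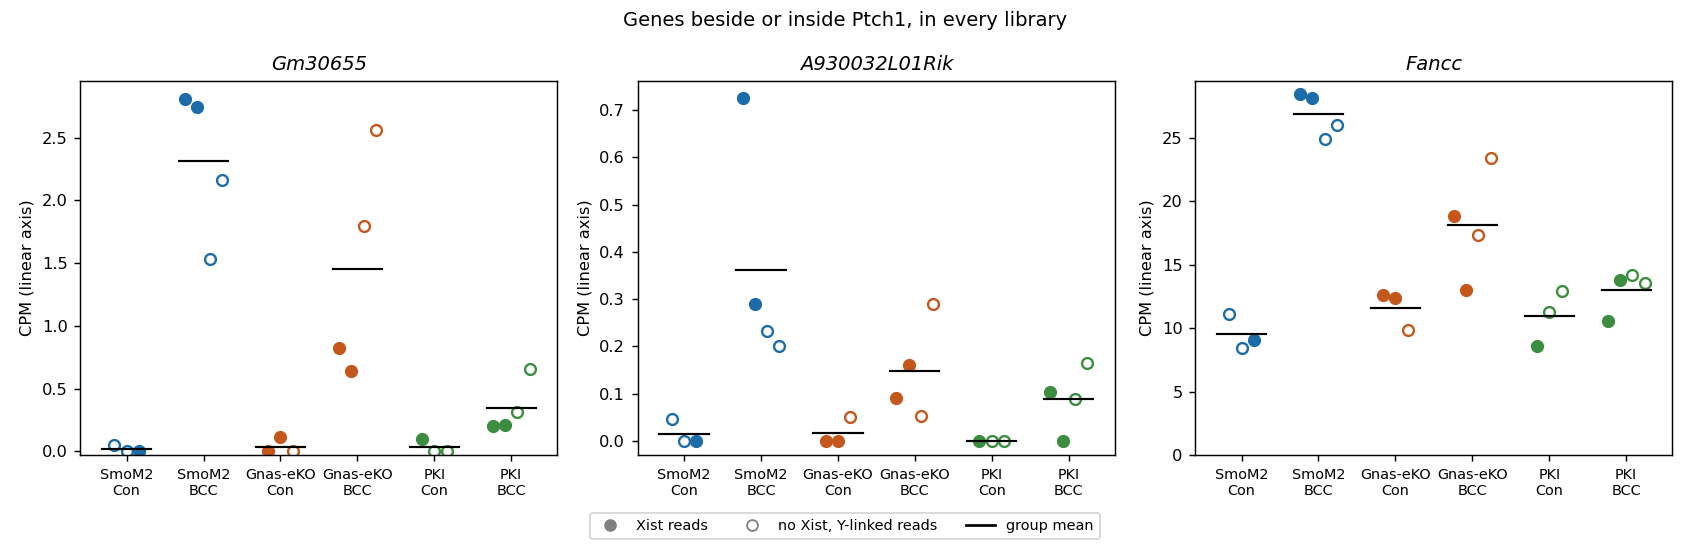
CPM (linear axes) in each library of Gm30655, beside Ptch1 on the opposite strand, of A930032L01Rik, inside Ptch1, and of Fancc, on its other side. Filled points are libraries with Xist reads and bars are group means. Gm30655 is at most 0.112 CPM in Con and at least 0.205 CPM in every BCC library, and Fancc separates the groups in SmoM2 and, narrowly, in Gnas-eKO.

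The genes most like each member over the 21 libraries were listed by Pearson's r of log2 CPM among 17695 genes, as a description, since all libraries share the contrast of BCC with Con. For Ptch1 they included Col27a1, Pakap, Slco4a1, Mycn and Dscaml1, with r of 0.989 to 0.982. For Hhipl1 they included Ptch1 itself, Cyyr1, Tulp3, Dscaml1 and Scnn1b, with r of 0.967 to 0.958. For Hhip they included Ccdc136, Vstm4, Ccdc149 and C2, with lower r of 0.892 to 0.881. Between the members r was 0.967 for Ptch1 and Hhipl1, 0.608 for Ptch1 and Hhip, and 0.589 for Hhip and Hhipl1. After the group means were removed, these became 0.516, 0.283 and −0.292 over the same 21 libraries. By such deviations the genes most like Hhip included Sdc3, Wnt6, Gsg1l and Rhbdl3 (r of 0.885 to 0.834). Those most like Ptch1 included Mlec, Pakap, Cdc14a, Vcan and Slco4a1 (0.904 to 0.891), and those most like Hhipl1 included Gm50105, Tmem87b, Lmln, Dnajc10 and Cbx8 (0.862 to 0.758).

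Marker lists of several cell types differed between BCC and Con, and their counts stand beside 16.2%, 1.46% and 18.7% of all tested genes called higher, and 13.5%, 0.165% and 15.8% called lower, in SmoM2, Gnas-eKO and PKI. The sum of the basal keratinocyte markers was lower in every BCC library than in the Con libraries of its model, and 5 of 7 were called lower in SmoM2, 4 in PKI and 0 in Gnas-eKO. Krt5 and Krt14 held most of that sum, and Trp63, a basal transcription factor, was called higher in SmoM2 (log2 change 0.48, edgeR adjusted p 0.00356). The 3 Langerhans cell markers summed to 88 to 173 CPM over the Con libraries and to 184 to 483 CPM over the BCC libraries, and 1, 0 and 3 of them were called higher. Epcam held most of that sum in SmoM2 and Gnas-eKO, where Cd207, which defines these cells, overlapped between Con and BCC. In PKI Cd207 was at 2.53 to 6.73 CPM in Con and 12.8 to 17.6 CPM in BCC. The sum of the 5 melanocyte markers was 149 to 195 CPM in PKI Con and 74.3 to 118 CPM in PKI BCC, where 3 were called lower. In SmoM2 2 of these 5 were called lower, although the sums overlapped. Of the 7 suprabasal keratinocyte markers 4 were called lower in SmoM2 (median log2 change −1.08), 3 lower and 1 higher in PKI (−0.52), and 0 in Gnas-eKO, with overlapping sums in each model. Of the 6 sebaceous gland markers 2 were called lower in PKI and 0 in the other models, and these sums overlapped too. The 13 hair follicle markers summed to 2719 to 3501 CPM in the 9 Con libraries and to 3723 to 9155 CPM in the BCC libraries, and 6 (SmoM2), 1 (Gnas-eKO) and 10 (PKI) of them were called higher, with 0 lower. Krt17 and Krt79 held most of the sum, and the members did not share a direction. Krt71, Krt25 and Krt27, keratins of the inner root sheath, rose in PKI by 4.53, 3.91 and 4.84 on the log2 scale (edgeR adjusted p 0.0214, 0.0393 and 0.00994). Their SmoM2 values were −1.50, −1.51 and −1.38, short of the threshold (edgeR adjusted p 0.213, 0.182 and 0.12). The 7 dermal fibroblast markers summed to 15.9 to 44.2 CPM over the Con libraries. In BCC the sums were 389 to 525 CPM for SmoM2, 93.9 to 579 for Gnas-eKO and 84.9 to 146 for PKI, and 2, 1 and 3 of the markers were called higher. Dcn alone held 363 to 500 CPM of that sum in SmoM2 BCC, while Pdgfra, a receptor that defines fibroblasts, was at 0.063 to 1.19 CPM over all 21 libraries. Dcn was not the only marker to rise, and the median log2 change of the 7 was 0.73 (SmoM2), 2.98 (Gnas-eKO) and 1.61 (PKI). Besides Dcn, the markers called higher were Col1a2 in SmoM2 and Col3a1 and Lum in PKI. Fbn1 and Pdgfra overlapped between Con and BCC in every model. Of the 7 leukocyte markers, 5 were called higher in PKI and 0 in each other model, and in PKI their sum was 7.95 to 17.2 CPM in Con and 34 to 72.6 CPM in BCC. Of the 6 dermal papilla markers, Corin was at most 0.27 CPM in any library, and Prlr held nearly all of the sum, so the lower sums of SmoM2 and PKI BCC are those of 1 gene. SmoM2 libraries had Prlr at 105 to 143 CPM (Con) and 70.8 to 88.6 CPM (BCC). PKI libraries had it at 138 to 161 CPM (Con) and 51.5 to 85.1 CPM (BCC). In bulk samples fewer cells of a type and less RNA per cell cannot be told apart, and the part these cells have in the values of Ptch1, Hhip and Hhipl1 was not tested.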

How the data were processed

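RNA was measured by polyA sequencing with a stranded ligation preparation, per the labels' protocols. Per the submitters' processing notes the tools were bcl2fastq 2.20, cutadapt 1.18, STAR 2.7.0f and Partek, with build mm10. The counting tool, annotation and strand setting are not given in the sources used here. The authors deposited estimated counts per gene without normalization, of which 32.4% are not whole (tolerance 1e-09). They also deposited a normalized signal, each count times a factor per library plus 0.001, called TMM in its name, which was used only for alternatives. Gene names matched GENCODE M21 for 23048 of 23713 genes, 22906 with the same start. Deposited ends lie 1 base past it and were lowered by 1.

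Estimated counts were rounded and fitted across all genes with edgeR 4.0.16 in R 4.3.3: filterByExpr by group, TMM, robust quasi-likelihood test, Benjamini-Hochberg adjustment, threshold 0.05. Con and BCC were compared within a model (7 libraries), and effects between models as an interaction (14 libraries). Each SE was derived from the log2 fold change and its F statistic. CPM are on TMM-scaled library sizes of all 21 libraries. Alternatives used DESeq2 1.42.0 and limma 3.58.1 (pseudocount 1). The fits were tested on simulated counts with the same spread set for all genes and changes set only in well-counted genes. That simulation does not cover genes with few or widely spread counts, such as Hhipl1 and Hhip in Con.

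Members, lists and tests were chosen with earlier results of these data known. Genes outside the members were named by a rule: Gli1, Patched and Hhip family genes, the 3 highest and 3 lowest called genes of a list, the nearest and overlapping genes, and the 5 most alike. Some genes that the rule names are not reported here, and 1 of them was left out of the list counts. Gnas, marker genes and single library values were given beyond the rule. Same-numbered Con and BCC libraries had correlations of deviations from −0.111 to 0.242, so the numbers were not taken to pair them. Replicates differed by more than counting noise in every pair (lowest chi-square over df 8.93), so none was merged. Each SE takes in the spread between libraries of a group, while floors cover counting error only.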

Additional observations from a re-analysis of the deposited data

Results flagged for a closer look

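The BCC effects of all 3 genes differed between PKI and SmoM2 by the interaction test, as did those of 24.9% of all genes tested (12.3% toward a lower effect in PKI). The log2 difference, PKI minus SmoM2, was −6.10 for Hhip, −3.35 for Hhipl1 and −1.71 for Ptch1 (edgeR adjusted p 0.0222, 0.00222 and 0.000268). Over the 14 fits that each left out 1 library the values ran from −8.44 to −3.42, from −4.05 to −2.51 and from −1.86 to −1.59, and Hhip lost its call in 2 of them, without PKI Con replicate 1 and without SmoM2 Con replicate 1. It also lost its call with the replicate block (−5.94, edgeR adjusted p 0.174). Model, batch and day cannot be told apart in this contrast.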

How the results depend on the processing

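Hhip in SmoM2 passed the threshold with limma on the authors' values (4.47), DESeq2 (3.79) and a joint fit of 21 libraries (3.79). With the Xist covariate, chosen with the Hhip values known, Hhip passed too (4.05). Leaving out 1 library gave 3.29 to 6.13, and it passed only without Con replicate 3. In PKI Hhip ran from −2.82 to 0.37, with the sign turning without Con replicate 1. In Gnas-eKO 267 genes were called, and 1540 with DESeq2, 2644 in the joint fit, 135 with the replicate block, 106 with the Xist covariate, and 0 to 1910 when 1 library was left out. With 1 library left out Ptch1 ran from 3.83 to 4.39 and Hhipl1 from 3.82 to 5.10. The replicate block gave 4.00 for Hhipl1 in Gnas-eKO (edgeR adjusted p 0.0549) and −5.94 for Hhip in PKI minus SmoM2 (0.174), which ran from −8.44 to −3.42 with 1 library left out, and the block changed no other call of the 3 genes. Genes that differed between Gnas-eKO and SmoM2 numbered 66 in the joint fit, 204 with DESeq2 and 14 to 79 with 1 library left out, against 30. Between PKI and Gnas-eKO they numbered 2381 with DESeq2, 925 with the block and 673 to 2512, against 1564. Replicate numbers were not taken to pair the libraries. The causes were not tested. Ptch1 and Hhipl1 in SmoM2 and PKI kept direction and call under all alternatives run. Hhipl1 in Con rests on 2 to 14 counts per library, which limits its fold change.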
